A study of Mus musculus with 4 samples.

Results

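The 51 genes described here carry out DNA replication in S phase or the repair and checkpoint work that goes with it. They were taken by gene name from a list of replication, S-phase and repair genes, and all 51 were found among the 37071 genes and transcripts named on the array. The list was chosen with earlier results of these data known. Messenger RNA was measured in RAW264.7, a mouse macrophage cell line, on 4 single-colour Agilent arrays. The groups were Mfp2-/- cells with lipopolysaccharide (LPS), Mfp2-/- cells untreated, wild-type cells with LPS and wild-type cells untreated, with 1 array each. LPS is a component of bacterial cell walls, which macrophages sense by Toll-like receptor 4. The gene Hsd17b4 encodes Mfp2, an enzyme that shortens fatty acids by beta-oxidation in peroxisomes. The study asked how loss of this gene influences expression with and without LPS. The sources used here give neither the dose and duration of LPS, nor how the gene was disrupted, nor whether the Mfp2-/- cells are 1 clone.

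With 1 array per group, no difference between 2 arrays has a replicate check and none has a p-value here. A level is the log2 processed signal of a gene's probe minus the 75th percentile of the array, so 0 is that percentile and a difference of 1 is 2-fold. Levels of different genes come from different probes and were not ranked against each other. A gene was called lower or higher at a difference of at least 2-fold. Replicate spots of the same probe gave a technical SD of 0.13 for the LPS difference of Mfp2-/- cells and 0.08 for that of wild-type cells, on the log2 scale, which covers error within an array and not between cultures. The only test was an additive limma fit over all 4 arrays, with LPS and genotype as terms and 1 residual degree of freedom per gene, Benjamini-Hochberg adjusted over 17382 genes.

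Between 47.4% and 49.7% of spots per array were clearly above background, and 0 were saturated. Hsd17b4 itself had a level of 1.39 in Mfp2-/- cells against 2.60 in wild-type cells with LPS, and 2.17 in Mfp2-/- cells against 3.06 in wild-type cells untreated. Its signal was thus 43.3% of wild type with LPS and 54.0% untreated, and the files do not say whether its probe lies within the disrupted stretch. All 10 macrophage markers were above background on all 4 arrays. Of the markers on the array, 1 of 4 for T cells and 0 of 5 each for B cells, fibroblasts, epithelium and endothelium were above background on all 4 arrays. On at least 1 array, 2 of the T cell, 3 of the B cell and 3 of the endothelial markers were above background. So was 1 marker each for fibroblasts and epithelium.

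A cell entering S phase first licenses its origins, where the origin recognition complex with Cdc6 and Cdt1 loads the MCM2-7 helicase. Kinases then recruit Cdc45 and the GINS complex, which turn MCM2-7 into the active helicase, and polymerases, clamp and clamp loader follow. Many of these genes are transcribed under E2F factors, which the retinoblastoma protein holds inactive until cyclin-dependent kinases release them. LPS is known to slow the division of macrophages in culture.

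Of the 51 genes, 50 were above background on all 4 arrays and Ccne2, a cyclin E, was below background on all 4. The 50 measured genes lay below their untreated level with LPS in both genotypes. In Mfp2-/- cells 39 of 50 were lower by at least 2-fold and 0 were higher, against a background of 12.3% of genes lower and 11.1% higher. In wild-type cells 34 of 50 were lower and 0 were higher, against a background of 8.37% lower and 9.97% higher. Because the genes were chosen with earlier results known, these shares are a description and not a test. The median difference of the 50 genes was -1.48 in Mfp2-/- cells and -1.30 in wild-type cells, which leaves 35.9% and 40.5% of the untreated signal. The median over all genes measured was -0.00049 in Mfp2-/- cells and 0.03 in wild-type cells. In RNA from whole cultures, fewer cells in S phase and less RNA per cell cannot be told apart.

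In both genotypes 31 of the genes were lower, against 6.3% of 17130 genes measured in both. In Mfp2-/- cells alone 8 passed the 2-fold threshold, namely Cdc6, Mcm2, Mcm4, Mcm6, Prim2, Fen1, Ccne1 and Chaf1a, against 5.78% of all genes. In wild-type cells alone 3 passed it, namely Cdc45, Tyms and Blm, against 1.66% of all genes. The 8 called in neither were Orc1, Orc6, Cdt1, Mcm3, Mcm10, Gins3, Rfc3 and Pcna. Several sat at the threshold: Pcna differed by -0.999 in Mfp2-/- cells without reaching it, and Chaf1a by -0.99 in wild-type cells. The split between genotypes depended on the scaling. Under spike-in centring Cdc6, Mcm2, Mcm4, Fen1 and Chaf1a also passed in wild-type cells. Cdc45 (-1.01), Tyms (-1.15) and Blm (-1.14) then also passed in Mfp2-/- cells. Under quantile normalization Mcm2, Mcm4, Fen1 and Chaf1a also passed in wild-type cells.

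In the additive fit, 39 of 50 genes fell with LPS and 0 rose, against 10.5% of all genes that fell and 11.1% that rose. Their median LPS coefficient was -1.41. The 11 that did not pass were Orc1, Cdc6, Cdt1, Mcm6, Cdc45, Gins3, Prim2, Pcna, Ccne1, E2f1 and Blm, with adjusted p between 0.0512 and 0.461. The fit counts unequal responses of the genotypes as noise, and Ccne1 and E2f1, the genes with the most unequal responses, had adjusted p of 0.146 and 0.0575.

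**Figure D1:**
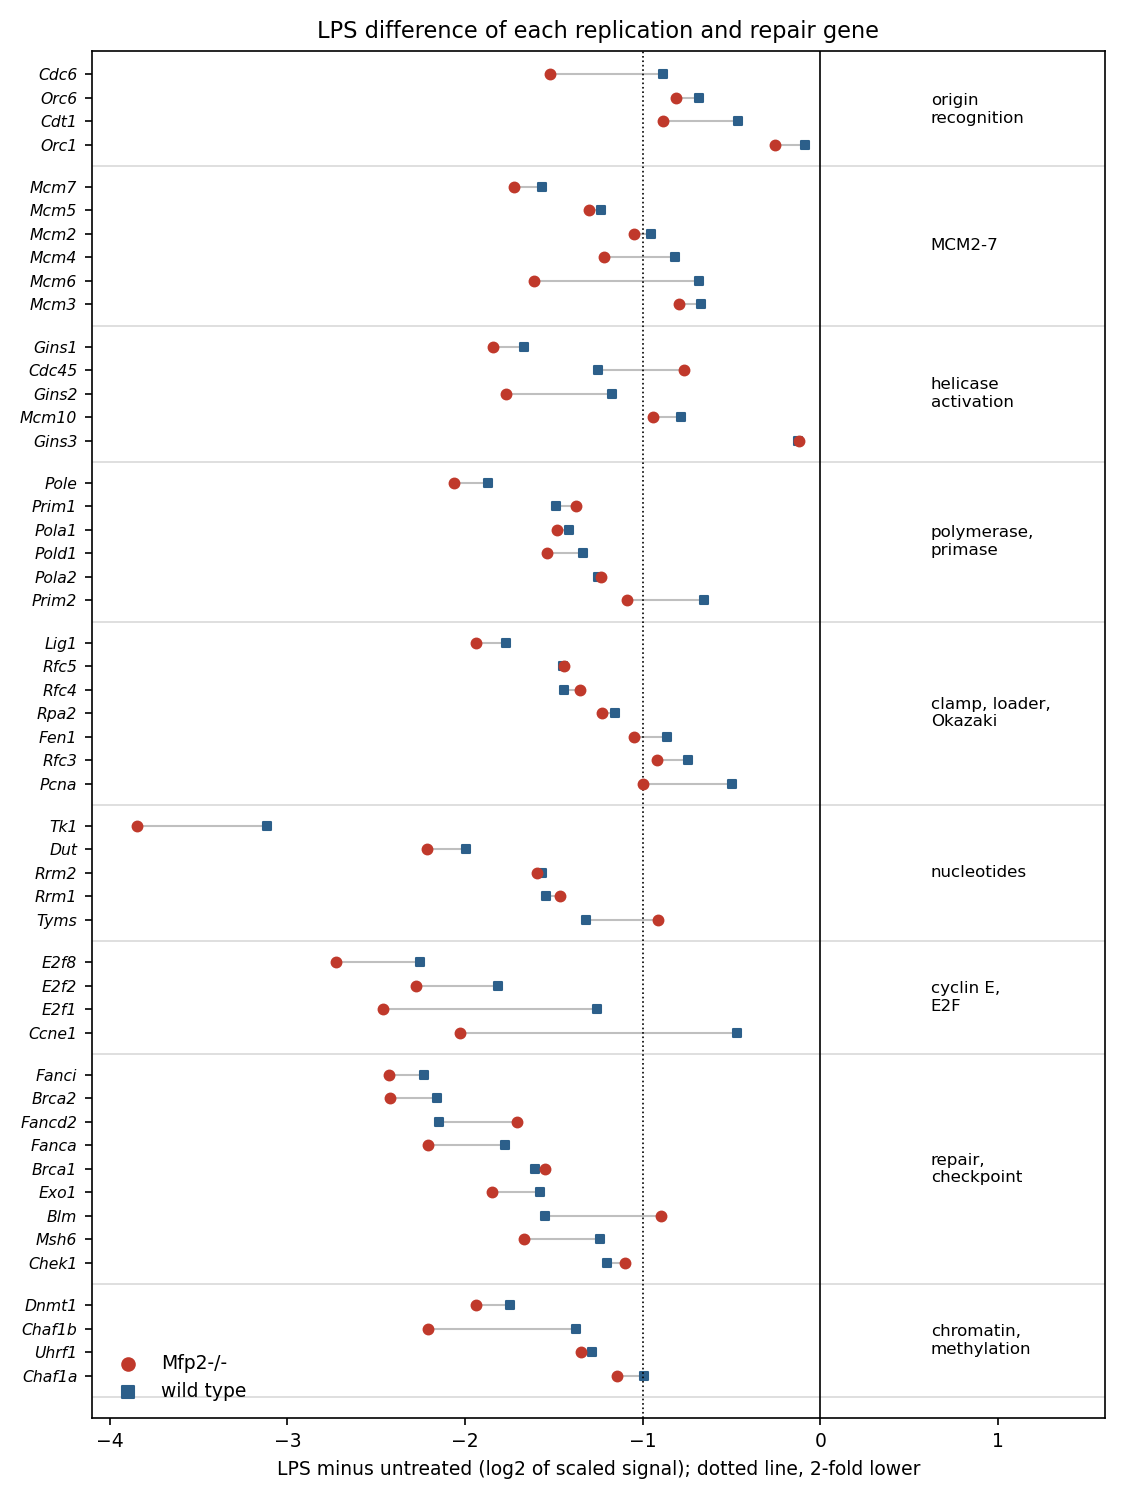
LPS minus untreated difference (log2 of scaled signal, x axis) of the 50 measured genes, grouped by role, with Mfp2-/- as red circles and wild type as blue squares, 1 array per group. All points lie below 0. Tk1 lies farthest left, at -3.85 and -3.11, and Gins3 and Orc1 lie nearest 0.

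The licensing factors had the smallest median differences among the roles. Their median was -0.85 in Mfp2-/- cells, with 1 of 4 lower, and -0.57 in wild-type cells, with 0 of 4 lower. Orc1, the largest subunit of the origin recognition complex, had a level of -0.08 with LPS against 0.17 untreated in Mfp2-/- cells, and -0.26 with LPS against -0.17 untreated in wild-type cells. Its 4 arrays lay close together, and the other Orc1 probes differed by between -0.66 and 0.66 with LPS in Mfp2-/- cells and between -0.41 and 0.08 in wild-type cells. Cdc6, which loads the helicase with Cdt1, stood at 0.82 with LPS against 2.35 untreated in Mfp2-/- cells, and at 0.996 with LPS against 1.89 untreated in wild-type cells. The Mfp2-/- array without LPS was the highest of the 4. Orc6 differed by -0.81 in Mfp2-/- cells and -0.69 in wild-type cells, and Cdt1 by -0.89 and -0.46.

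The MCM2-7 helicase subunits were all below their untreated level with LPS, 5 of 6 by at least 2-fold in Mfp2-/- cells and 2 of 6 in wild-type cells. Their medians were -1.26 and -0.89. Mcm7 had levels of 3.76 with LPS against 5.48 untreated in Mfp2-/- cells, and 3.55 with LPS against 5.11 untreated in wild-type cells. Mcm5 differed by -1.30 and -1.23, almost alike in the genotypes. Mcm6 did not: it had 4.65 with LPS against 6.27 untreated in Mfp2-/- cells, and 5.30 with LPS against 5.99 untreated in wild-type cells. Its LPS differences of -1.61 and -0.68 were matched in order by a second probe, with -1.496 and -0.87. Mcm2, Mcm3 and Mcm4 differed by between -1.22 and -0.80 in Mfp2-/- cells and by between -0.95 and -0.67 in wild-type cells. The fit called 5 of the 6 lower, all but Mcm6.

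**Figure D2:**
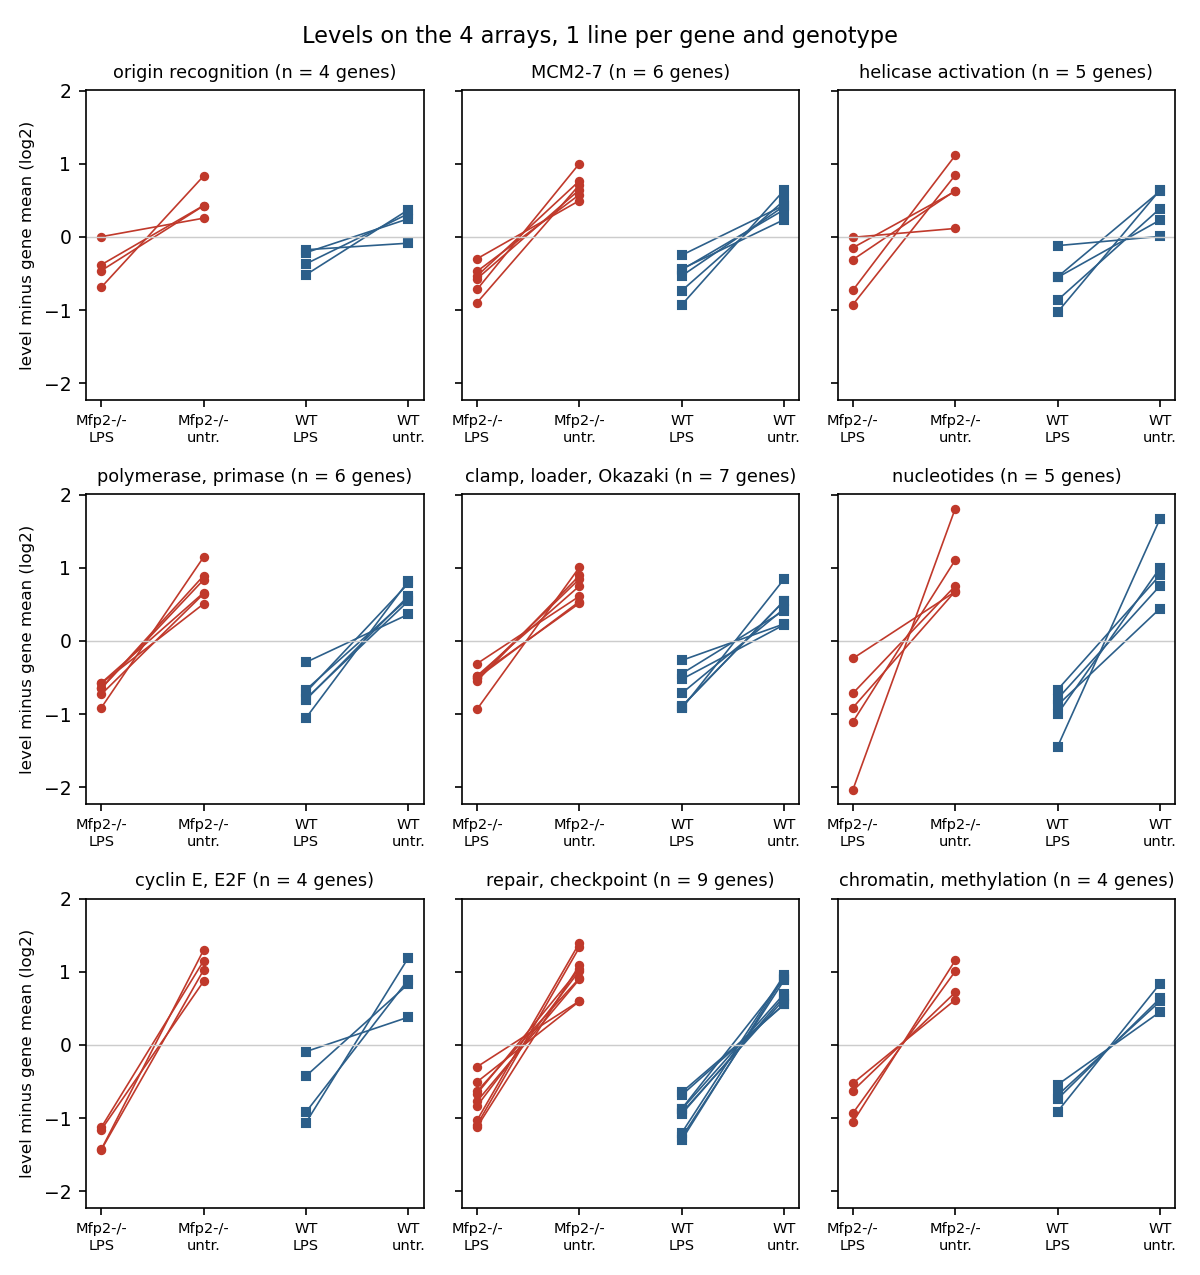
Level of each gene on the 4 arrays minus the mean of that gene over them (log2, y axis), a panel per role, with Mfp2-/- in red left of wild type in blue and lines joining LPS and untreated arrays. The LPS arrays lie below the untreated arrays for every line, and the flat lines are Gins3 and Orc1.

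The factors that turn MCM2-7 into a working helicase did not move as 1 group. GINS has 4 subunits that form 1 complex, and 3 of their genes are among the 51. Gins1 had levels of 1.05 with LPS against 2.90 untreated in Mfp2-/- cells, and 0.75 with LPS against 2.42 untreated in wild-type cells. Gins2 had 1.35 with LPS against 3.12 untreated in Mfp2-/- cells, and 1.73 with LPS against 2.90 untreated in wild-type cells. Gins3, at chr8:98168040-98168099 in mm9 by its probe, had 3.97 with LPS against 4.09 untreated in Mfp2-/- cells, and 3.86 with LPS against 3.98 untreated in wild-type cells. Gins1 and Gins2 were therefore lower on both LPS arrays, by between 1.17 and 1.84, while Gins3 lay between 3.86 and 4.09 on the 4 arrays and the fit gave it an adjusted p of 0.461.

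Cdc45, the helicase cofactor, had levels of -0.59 with LPS against 0.18 untreated in Mfp2-/- cells, and -1.30 with LPS against -0.05 untreated in wild-type cells. It was lowest on the wild-type LPS array. A second probe gave -0.20 in Mfp2-/- cells and -1.12 in wild-type cells. Mcm10, which acts as the helicase starts, differed by -0.94 in Mfp2-/- cells and -0.78 in wild-type cells, and by -1.48 and -1.45 on its other probe.

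The polymerases and primase were more uniform. In Mfp2-/- cells 6 of 6 were lower, with a median of -1.43, and in wild-type cells 5 of 6, with a median of -1.38. Pole, the catalytic subunit of the leading-strand polymerase epsilon, had levels of 1.36 with LPS against 3.42 untreated in Mfp2-/- cells, and 1.22 with LPS against 3.09 untreated in wild-type cells. Pold1, the catalytic subunit of the lagging-strand polymerase delta, had 2.73 with LPS against 4.27 untreated in Mfp2-/- cells, and 2.59 with LPS against 3.92 untreated in wild-type cells. Both LPS arrays were lower in each case. Pola1, which extends the RNA primer, differed by -1.49 and -1.42, and the primase subunit Prim1 by -1.38 and -1.49. Pola2 and Prim2 gave less even values, since other probes of Pola2 above background on all arrays differed by between -1.34 and -0.32 in Mfp2-/- cells and by between -1.22 and -0.61 in wild-type cells. The second probe of Prim2 differed by -1.16 and -1.30, past 2-fold in both genotypes, where the probe shown gave -1.09 and -0.66.

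Among the clamp, its loader, single-strand binding and Okazaki fragment genes, 5 of 7 were lower in Mfp2-/- cells and 4 of 7 in wild-type cells, with medians of -1.23 and -1.16. Lig1, the ligase that seals Okazaki fragments, had levels of 3.002 with LPS against 4.94 untreated in Mfp2-/- cells, and 3.01 with LPS against 4.78 untreated in wild-type cells. Its difference was the largest of the group in both genotypes. Pcna, the sliding clamp, had 5.71 with LPS against 6.71 untreated in Mfp2-/- cells, and 5.93 with LPS against 6.43 untreated in wild-type cells. Pcna thus kept 50.04% of the untreated signal in Mfp2-/- cells and 70.8% in wild-type cells, and did not pass the fit (adjusted p = 0.0798). The clamp loader genes Rfc4 and Rfc5 differed by between -1.45 and -1.35 in both genotypes, and Rfc3 by -0.92 and -0.75. For Rfc5 the other probes above background on all arrays differed by only -0.15 and 0.41 in wild-type cells. Rpa2, of the single-strand binding protein, differed by -1.23 and -1.16, and the flap nuclease Fen1 by -1.05 and -0.86.

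The nucleotide supply genes held the largest difference of the 51. Tk1, thymidine kinase of the salvage pathway, lies at chr11:117676845-117676904 in mm9 by its probe. It had levels of 1.12 with LPS against 4.97 untreated in Mfp2-/- cells, and 1.71 with LPS against 4.83 untreated in wild-type cells. The LPS signal was 6.95% of the untreated one in Mfp2-/- cells and 11.5% in wild-type cells. All 3 Tk1 probes above background on all arrays gave between -3.85 and -3.64 in Mfp2-/- cells and between -3.19 and -3.11 in wild-type cells. The fit put the LPS coefficient at -3.48 ± 0.24 (SE), with an adjusted p of 0.0266.

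Dut, which clears dUTP so that uracil is not built into DNA, had levels of 1.13 with LPS against 3.34 untreated in Mfp2-/- cells, and 1.24 with LPS against 3.23 untreated in wild-type cells. The ribonucleotide reductase subunits were nearly equal in the genotypes, Rrm1 at -1.47 and -1.55 and Rrm2 at -1.59 and -1.57. Tyms, which makes thymidylate, differed by -0.91 in Mfp2-/- cells and -1.32 in wild-type cells. Its other probes gave -1.35 and -0.81 in Mfp2-/- cells, so its call there depends on the probe. All 5 nucleotide supply genes passed the fit.

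The cyclin E and E2F genes had the widest gap between genotypes, with a median of -2.37 in Mfp2-/- cells, 4 of 4 lower, and -1.54 in wild-type cells, 3 of 4 lower. E2f8, a repressor of the family, had levels of -0.09 with LPS against 2.64 untreated in Mfp2-/- cells, and 0.28 with LPS against 2.53 untreated in wild-type cells. E2f2, an activator, had 0.77 with LPS against 3.05 untreated in Mfp2-/- cells, and 0.98 with LPS against 2.79 untreated in wild-type cells. Both were lower in both genotypes and passed the fit. E2f1, another activator, at chr2:154385798-154385857 in mm9 by its single probe, had -0.22 with LPS against 2.24 untreated in Mfp2-/- cells, and 0.79 with LPS against 2.05 untreated in wild-type cells. Ccne1, the cyclin that drives Cdk2 into S phase, at chr7:38882937-38882960 by its single probe, had 1.56 with LPS against 3.59 untreated in Mfp2-/- cells, and 2.63 with LPS against 3.10 untreated in wild-type cells. For both genes the Mfp2-/- LPS array was the lowest of the 4.

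The repair and checkpoint genes were lower in 8 of 9 cases in Mfp2-/- cells, with a median of -1.71, and in 9 of 9 in wild-type cells, with a median of -1.61. Fanci and Fancd2 form the pair that is ubiquitinated at DNA crosslinks. Fanci had levels of -0.65 with LPS against 1.78 untreated in Mfp2-/- cells, and -0.91 with LPS against 1.32 untreated in wild-type cells. Fancd2 had -2.27 with LPS against -0.57 untreated in Mfp2-/- cells, and -2.87 with LPS against -0.72 untreated in wild-type cells. Both were lower on each LPS array. Fanca, of the complex that ubiquitinates them, differed by -2.21 and -1.78, though a second probe above background on all arrays gave -0.36 and 0.15.

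Brca2, which acts in homologous recombination, had levels of -0.80 with LPS against 1.63 untreated in Mfp2-/- cells, and -0.91 with LPS against 1.25 untreated in wild-type cells. Brca1, its partner in recombination, differed by -1.55 and -1.61, and another Brca1 probe above background on all arrays by 0.23 and -0.24. Blm, the helicase that resolves recombination intermediates, had 1.39 with LPS against 2.29 untreated in Mfp2-/- cells, and 0.76 with LPS against 2.31 untreated in wild-type cells. Its 3 probes differed by between -1.17 and -0.80 in Mfp2-/- cells and by between -1.64 and -1.31 in wild-type cells. The nuclease Exo1 differed by -1.85 and -1.58, the mismatch repair gene Msh6 by -1.67 and -1.24 and the checkpoint kinase Chek1 by -1.10 and -1.20. All but Blm passed the fit.

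The chromatin genes were lower in 4 of 4 cases in Mfp2-/- cells, with a median of -1.64, and in 3 of 4 in wild-type cells, with a median of -1.33. Dnmt1, which copies DNA methylation onto the new strand, had levels of 0.06 with LPS against 2.0005 untreated in Mfp2-/- cells, and 0.08 with LPS against 1.83 untreated in wild-type cells. Uhrf1, which recruits Dnmt1, differed by -1.35 and -1.28. Chaf1b, of the chromatin assembly factor that places histones behind the fork, had 2.24 with LPS against 4.45 untreated in Mfp2-/- cells, and 2.56 with LPS against 3.93 untreated in wild-type cells. Its untreated level was higher in Mfp2-/- cells. Its partner Chaf1a differed by -1.14 and -0.99. All 4 fell in the fit.

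Without LPS, Mfp2-/- and wild-type cells differed little. Of the 50 genes, 0 were lower and 0 were higher by 2-fold in Mfp2-/- cells, against a background of 4.06% lower and 3% higher. Even so, 46 of 50 lay above 0, with a median of 0.23, where the median over all genes was 0.03 and 55% of the genes above background on all 4 arrays lay above 0. That median is 118% of the wild-type signal, and 28 of the 46 differences passed 0.20, which is 2 technical SDs, against 22.3% of those genes. The highest were Chaf1b at 0.52, Ccne1 at 0.49 and Gins1 at 0.47, and the lowest was Rrm2 at -0.22. Other replication genes lay at 0.16 and mitosis genes at -0.10.

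With LPS, 2 of 50 genes were lower in Mfp2-/- than in wild-type cells and 0 were higher, against a background of 4.62% lower and 1.67% higher. The 2 were Ccne1 at -1.07 and E2f1 at -1.01, each on a single probe. The share lower, 4%, was near the background and is not a result about the group. The median was 0.06, and it was 0.27 under median centring and 0.0069 with the mean of probes. The highest values were Cdc45 at 0.72, Tyms at 0.64, Blm at 0.63 and Fancd2 at 0.60, and the lowest after Ccne1 and E2f1 were Mcm6 at -0.65 and Tk1 at -0.59. A second Cdc45 probe, above background on all 4 arrays, stood at 1.04 and so past 2-fold. Of the 87 member probes above background on all 4 arrays, 2 were lower and 1 was higher, with no share over all probes given here. Both calls ended under median centring, which gave -0.87 for Ccne1 and -0.81 for E2f1, and under normexp correction, which gave -0.96 and -0.98. The call of E2f1 alone ended under quantile normalization, in the deposited series table and with the percentile over probes, and both calls stayed under spike-in centring and with the mean of probes. In the fit 0 genes passed for genotype in either direction, here and over all 17382 genes (0% and 0%). At an unadjusted p under 0.05 in that fit, 0 of the 50 passed, against 955 of the 17382 genes lower and 732 higher.

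**Figure D3:**
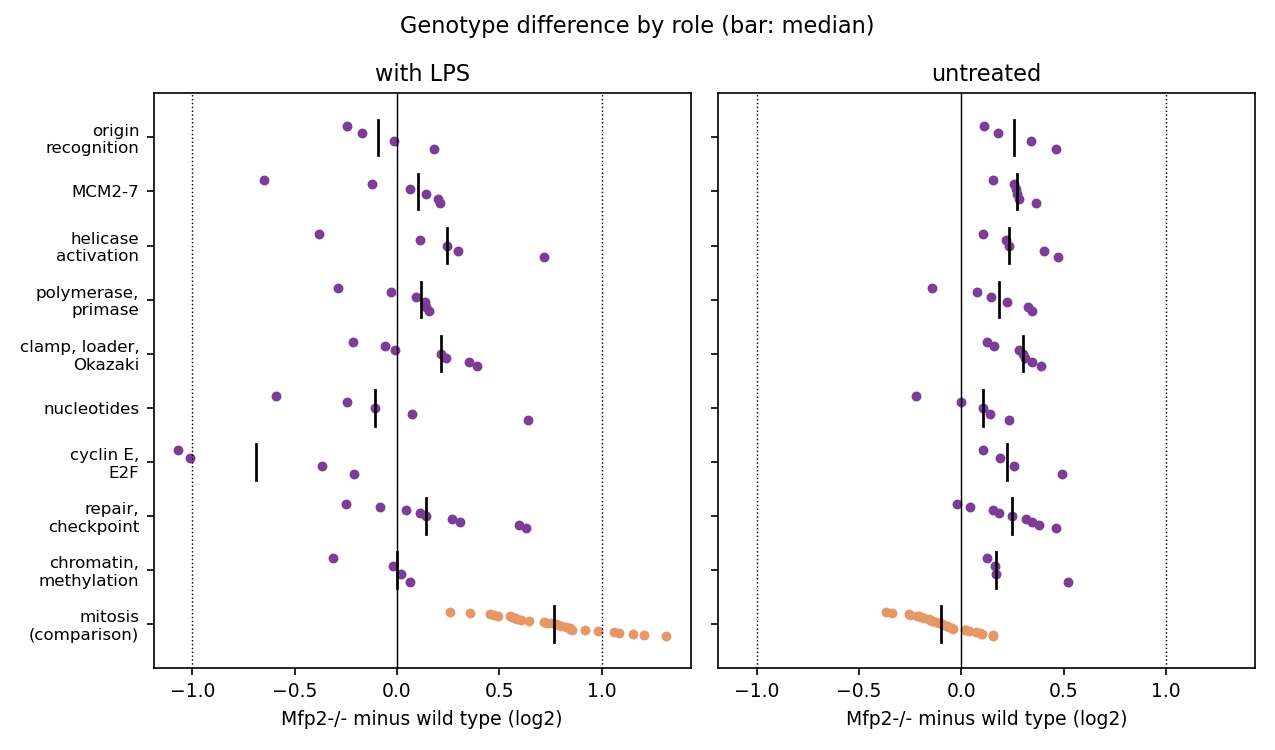
Mfp2-/- minus wild type (log2, x axis) with LPS at left and untreated at right, 1 point per gene in rows by role, with mitosis genes as a comparison row and black bars at medians. Dotted lines mark 2-fold. Untreated points of the replication and repair genes sit mostly right of 0, and with LPS they spread on both sides while all 28 mitosis genes lie right of 0.

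The difference between the LPS responses, Mfp2-/- minus wild type, was at least 2-fold for 2 of 50 genes, both more negative in Mfp2-/- cells, and 0 were less negative, against a background of 2.99% and 1.63%. They were Ccne1 at -1.56 and E2f1 at -1.20. The median over the 50 genes was -0.17, and 38 of 50 lay below 0, where the median over all genes was -0.0069 and 50.8% lay below 0. Median centring moved the members' median to -0.04, with 30 of 50 below 0, and that of all genes to 0.12. Of the 50, 31 lay within 0.30, which is 2 technical SDs, a share near the 63.3% of all genes. After Ccne1 and E2f1 came Mcm6 at -0.93, Chaf1b at -0.84, Tk1 at -0.73 and Cdc6 at -0.63, and at the other end Blm at 0.65, Cdc45 at 0.48, Fancd2 at 0.44 and Tyms at 0.41. No test of these differences is possible with 1 array per group. Across the 50 genes the responses correlated (Pearson's r 0.81, Spearman's rho 0.74), a description over genes that share the same 4 arrays.

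**Figure D4:**
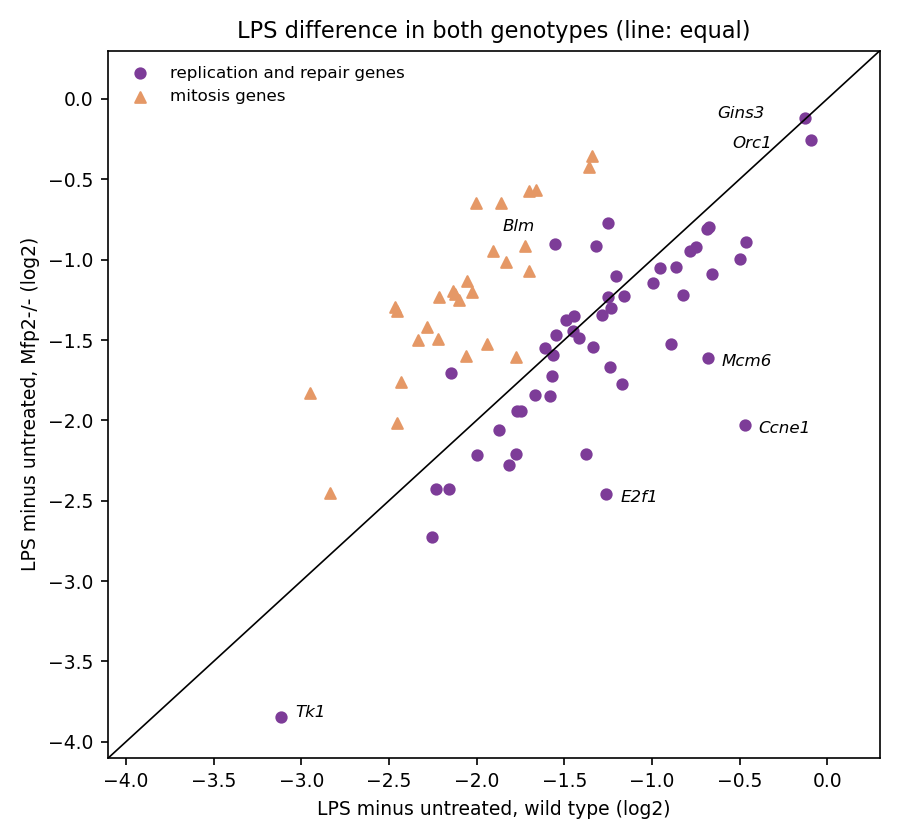
LPS minus untreated difference in wild-type cells (x axis, log2) against Mfp2-/- cells (y axis, log2) for the 50 replication and repair genes (purple circles) and 28 mitosis genes (orange triangles), with the line of equal response. Ccne1, E2f1 and Mcm6 lie well below the line, Blm above it, and all 28 mitosis genes lie above it.

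Mitosis genes, whose products act mostly after S phase, were set beside these. Of 28, 20 were lower with LPS in Mfp2-/- cells, against 12.3% of all genes, with a median of -1.22. In wild-type cells 28 were lower, against 8.37%, with a median of -2.06. The difference of responses had a median of 0.89 over them, and all 28 lay above 0, against -0.17 and 12 of 50 for the replication and repair genes. The middle part of the values, from the lower to the upper quartile, ran from 0.71 to 1.02 for mitosis genes and from -0.43 to -0.04 for the replication and repair genes. The mitotic kinesin gene Kif11 differed by -1.83 in Mfp2-/- cells and -2.95 in wild-type cells, and Ccna2, the cyclin of S phase and G2, by -2.45 and -2.84. These comparisons share the same 4 arrays, and the gap between the lists has no test.

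Of 43 other replication genes, 23 were lower and 0 higher in Mfp2-/- cells, with a median of -1.19, against 12.3% and 11.1% of all genes. In wild-type cells 21 were lower and 0 higher, with a median of -0.94, against 8.37% and 9.97%. The fit called 28 of 43 lower and 0 higher. Esco2, which acetylates cohesin in S phase, differed by -2.73 and -2.96, and Dscc1, of an alternative clamp loader, by -2.79 and -1.94. Clspn, a mediator of the replication checkpoint, differed by -2.30 in Mfp2-/- cells, and Chtf18, a partner of Dscc1, by -2.14 in wild-type cells. Of the 43, 39 lay below 0 in each genotype and 4 above it.

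Of 58 other repair and checkpoint genes, 23 were lower and 3 higher in each genotype, with medians of -0.72 in Mfp2-/- cells and -0.74 in wild-type cells. The background was 12.3% lower and 11.1% higher in Mfp2-/- cells, and 8.37% and 9.97% in wild-type cells. Neil3, a glycosylase of replicating cells, differed by -2.95 and -2.92. Bard1, the partner of Brca1, differed by -2.03 in wild-type cells. Ercc1, of nucleotide excision repair, stood the other way, at 2.62 in Mfp2-/- cells and 2.27 in wild-type cells. The fit called 28 of 58 lower and 4 higher.

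The other nucleotide synthesis genes had smaller median differences with LPS than the replication and repair genes. Of 26, 2 were lower (7.69%) and 2 higher in Mfp2-/- cells, with a median of -0.26, against 12.3% and 11.1% of all genes. In wild-type cells 3 were lower (11.5%) and 1 higher, with a median of -0.24, against 8.37% and 9.97%. Dtymk, which phosphorylates thymidylate after Tk1, differed by -1.49 and -1.03. Samhd1, which breaks down deoxynucleotides, was higher by 1.47 in wild-type cells, and Mthfd2, of mitochondrial folate metabolism, by 1.49 in Mfp2-/- cells. The fit called 8 of 26 lower and 1 higher, against 10.5% and 11.1% of all genes.

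Of 29 measured E2F, RB and G1 regulators outside the 51, 10 were lower and 5 higher in Mfp2-/- cells, with a median of -0.65. In wild-type cells 8 were lower and 4 higher, with a median of -0.34. Over all genes, 12.3% were lower and 11.1% higher in Mfp2-/- cells, and 8.37% and 9.97% in wild-type cells. Tfdp2, a dimer partner of E2F factors, differed by -3.27 and -2.54, and E2f7, the close relative of E2f8, by -3.03 in Mfp2-/- cells. Foxm1, a factor for G2 and mitosis genes, differed by -2.31 in wild-type cells. Myc, a growth-promoting factor, was at least 87.3-fold higher with LPS in Mfp2-/- cells, where its untreated probe was not well above background, and higher by 4.50 on the log2 scale in wild-type cells. Ccnd2, a D-type cyclin of G1, was higher by 4.98 on the log2 scale in Mfp2-/- cells and at least 55.2-fold higher in wild-type cells, where its untreated probe was not well above background. For such a bound, a dim probe was raised to the faintest detected signal of its array where it lay under that. These values come from the arrays on which the S-phase genes stood lower. Of 12 widely used reference genes, 0 were lower and 0 higher in either genotype, with medians of 0.28 in Mfp2-/- cells and 0.23 in wild-type cells.

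The promoters of the genes were examined because their transcripts stood in the same direction on both LPS arrays. RefSeq promoter sequence of GRCm38.p6, from 250 bases before to 50 after the start, was at hand for 43 of the 51 genes and for 27025 genes in all. Only the first listed promoter of a gene was used, and 6 of the 43 had more than 1. The counts thus concern that promoter and not every start of a gene. The E2F-type motifs searched, on either strand and with overlaps allowed, had 4 spellings. TTCCCGC stood in 44.2% of the 43 promoters against 4.66% of all, and TTGGCGC in 20.9% against 2.54%. TTCGCGC stood in 11.6% against 1.59%, and TTGCCGC in 6.98% against 1.80%. Any of the 4 stood in 27 of 43 promoters (62.8%), against 9.69% of all promoters. It stood in at least 2 places that do not overlap in 9 of 43 (20.9%), against 1.12%. Among promoters with a GC content between 53.3% and 65.8%, 16 of 21 held it (76.2%), against 13.8% of 8758. CCAAT stood in 60.5%, against 37.9%, and TTTGAA, a motif known from mitosis gene promoters, in 13.95%, against 18.1%. A match is a description of letters and not a measured binding site.

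The 5 promoters with 3 or more matches are shown with the matches in capitals, since 4 of them belong to subunits of 1 helicase. Of its other subunits, Mcm2 had 0 matches in the promoter used and Mcm4 had no promoter at hand.
Mcm3, chr1:20820263-20820562, minus strand: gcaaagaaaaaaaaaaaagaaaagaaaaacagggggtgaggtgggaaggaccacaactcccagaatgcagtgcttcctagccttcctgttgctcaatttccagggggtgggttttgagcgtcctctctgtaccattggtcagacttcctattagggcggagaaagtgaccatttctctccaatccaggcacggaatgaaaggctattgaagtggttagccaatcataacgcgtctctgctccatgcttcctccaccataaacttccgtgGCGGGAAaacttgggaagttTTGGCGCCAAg
Mcm5, chr8:75109259-75109558, plus strand: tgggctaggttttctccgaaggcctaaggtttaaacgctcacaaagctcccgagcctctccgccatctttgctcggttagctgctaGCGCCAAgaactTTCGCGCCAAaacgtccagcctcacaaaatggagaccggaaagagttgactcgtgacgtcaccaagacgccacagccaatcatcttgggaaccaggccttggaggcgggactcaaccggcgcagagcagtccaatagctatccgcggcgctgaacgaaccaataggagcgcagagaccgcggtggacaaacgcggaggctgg
Mcm6, chr1:128359656-128359955, minus strand: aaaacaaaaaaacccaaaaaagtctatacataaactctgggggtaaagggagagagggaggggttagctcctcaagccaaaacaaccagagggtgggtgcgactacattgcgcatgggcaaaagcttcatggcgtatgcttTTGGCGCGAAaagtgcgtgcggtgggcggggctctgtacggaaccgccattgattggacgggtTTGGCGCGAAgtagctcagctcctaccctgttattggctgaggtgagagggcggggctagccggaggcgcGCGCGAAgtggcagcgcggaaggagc
Mcm7, chr5:138171834-138172133, minus strand: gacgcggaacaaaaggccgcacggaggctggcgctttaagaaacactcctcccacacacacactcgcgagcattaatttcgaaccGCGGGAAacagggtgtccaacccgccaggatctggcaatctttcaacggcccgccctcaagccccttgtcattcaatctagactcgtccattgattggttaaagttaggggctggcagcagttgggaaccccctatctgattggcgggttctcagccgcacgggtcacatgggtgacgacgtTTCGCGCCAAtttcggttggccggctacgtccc
Pola1, chrX:93632106-93632405, minus strand: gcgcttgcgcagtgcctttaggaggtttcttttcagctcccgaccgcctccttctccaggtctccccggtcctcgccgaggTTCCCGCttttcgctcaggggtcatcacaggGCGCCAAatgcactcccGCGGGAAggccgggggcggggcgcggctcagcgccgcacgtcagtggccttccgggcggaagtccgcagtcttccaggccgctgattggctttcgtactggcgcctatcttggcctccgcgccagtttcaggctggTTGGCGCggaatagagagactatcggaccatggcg

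Mcm6 had 5 matches in 3 places, 2 of them overlapping pairs on opposite strands, and Pola1 had 4 in 4 places. The shown Mcm3, Mcm5 and Mcm7 promoters had 3 matches each in 2 places. The LPS differences of these genes ran from -1.72 for Mcm7 to -0.80 for Mcm3 in Mfp2-/- cells. In wild-type cells they ran from -1.57 for Mcm7 to -0.67 for Mcm3. Whether matches bear on the LPS differences was not tested. Gins3 and Orc1, whose transcripts were nearest to their untreated level, had 1 match each, 41 and 27 bases before the start. Tk1, with the largest LPS difference in both genotypes, had 0 matches in the promoter used. Genes with a match had a median of -1.47 in Mfp2-/- cells and -1.34 in wild-type cells (27 genes), and genes without one -1.34 and -1.26 (16 genes). Of those with a match 21 were lower in Mfp2-/- and 19 in wild-type cells, and of those without 11 and 10.

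**Figure D5:**
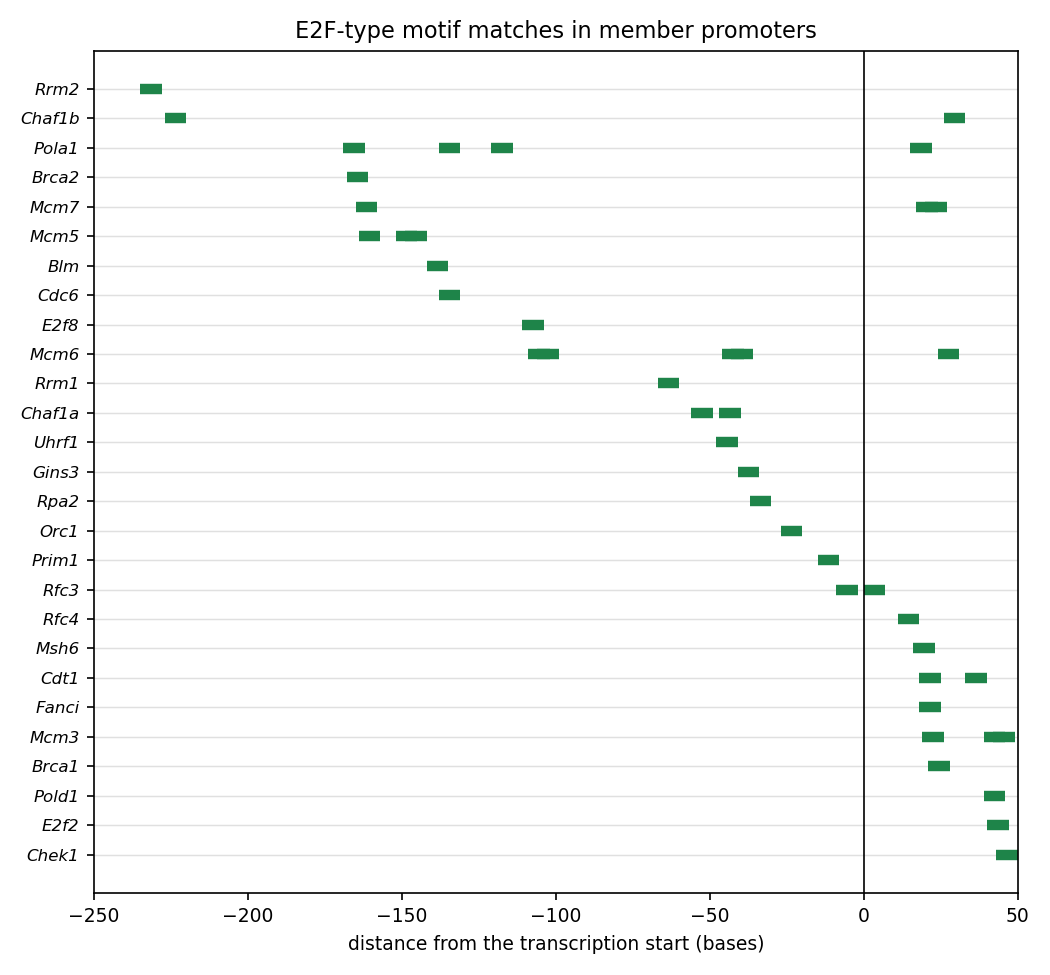
E2F-type motif matches (green bars) in the 27 member promoters that hold one, by distance from the transcription start (bases, x axis, 0 at the start). Mcm6, Pola1, Mcm3, Mcm5 and Mcm7 hold 3 or more, and matches lie on both sides of the start.

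Several probes were present for 32 of the 51 genes, and 87 of the 102 probes were above background on all 4 arrays. Of these 87, 84 lay below 0 with LPS in each genotype, 62 were lower by 2-fold in Mfp2-/- cells and 58 in wild-type cells, and 0 were higher. No share over all probes is given here, and probes of 1 gene are not separate genes, so these counts are a description. Between probes of 1 gene the LPS difference had a median range of 0.37 in Mfp2-/- cells and 0.26 in wild-type cells, and a range of up to 1.85 and 1.93. Probes above background on all arrays lay on both sides of the 2-fold threshold for Brca1, Fanca, Mcm10, Pola2 and Rfc5 in both genotypes, for Blm and Tyms in Mfp2-/- cells, and for Prim2 in wild-type cells.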

How the data were processed

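Cy3-labelled RNA of 4 RAW264.7 cultures, per the labels' protocols, was hybridised to 4 Agilent arrays of design 074809 on 1 slide with 1 scan time. The deposited scanner files hold background-subtracted and detrended spot intensity, per the file headers, which name Feature Extraction 10.7.1.1, whereas the submitters' processing notes give 9.5.1.1. The deposited flags, a unit of type other, mark spots well above background. The deposited series table of intensity, close to a quantile normalization of the scanner signals, was an alternative. The position on the slide cannot be told apart from the group.

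The processed signal was put on the log2 scale and reduced by the 75th percentile over non-control spots, between 463 and 567 per array. Control and outlier spots were left out, and spots of a probe were averaged. A gene was shown by the probe above background on the most arrays, then by the brightest. Calls needed 2-fold on arrays above background, or a bound of 2-fold with 1 array above it. limma 3.58.1 in R 4.3.3 fitted the additive model over 17382 genes with 2 or more arrays above background. The remaining work was done in Python 3.11.15, numpy 2.4.6, pandas 2.3.3 and matplotlib 3.10.9. The additive fit was tried on simulated data with additive effects and equal noise, which held no unequal responses of the genotypes. The members and gene lists were chosen with earlier results of these data known. All 51 members could be named, and of other lists up to 3 genes with the largest difference in size per LPS comparison. Some genes that met this rule are not reported. Probe positions are in mm9, as in the files, and promoters come from RefSeq GRCm38.p6. The depth of an array is not a count, and the number of arrays limits the precision. Alternatives were normexp correction (offset 50), quantile normalization, median and spike-in centring, a percentile over probes, the mean of probes, other filters, other thresholds and a trended prior.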

Additional observations from a re-analysis of the deposited data

How the results depend on the processing

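The number of genes lower with LPS ranged from 35 to 48 in Mfp2-/- cells and from 31 to 45 in wild-type cells over the alternatives other than the 4-fold threshold, where it was 11 and 5. In each alternative 0 were higher. The counts over all genes moved as well. In Mfp2-/- cells, of 18405 genes 1857 were lower under median centring, 3184 under spike-in centring, 4067 at 1.5-fold and 475 at 4-fold. In wild-type cells, 1311 of 18229 were lower with the mean of probes. Of 18212 genes there, 3104 were lower at 1.5-fold and 261 at 4-fold. Centring on 7 spike-in probes moved the median of all genes to -0.24 and -0.20 with LPS, and the members' medians to -1.72 and -1.53. In the additive fit, the count lower with LPS ranged from 34 to 47, and was 0 at adjusted p under 0.01.

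The calls of Ccne1 and E2f1 between LPS-treated Mfp2-/- and wild-type cells were the least stable. The number lower was 0 under normexp correction, 1 under quantile normalization, 0 under median centring, 1 in the deposited series table, 1 with the percentile over probes (chosen after seeing the data), 4 at 1.5-fold and 0 at 4-fold, and the number higher was 4 at 1.5-fold. Of all 17741 genes in that comparison, 1817 were lower and 982 higher at 1.5-fold, and 178 were lower at 4-fold. The member counts at these thresholds are a description and not a result about the group. Median centring moved the median of all genes in that comparison to 0.21. For the difference of the responses, 7 were more negative and 1 less negative at 1.5-fold, and 0 were more negative at 4-fold. Counts over all genes for these thresholds are not given here. The cause was not tested. The members' median difference of responses was -0.19 to -0.04 over the scalings and representations tried, with 40 to 30 of 50 below 0, the weakest under median centring. The mitosis genes kept all 28 responses less negative in Mfp2-/- cells under each of them.

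No paired analysis was possible because each group had 1 array. Leaving out an array, which would empty a group, was not run. The filter for genes above background on all 4 arrays is part of the response comparison and was not run there again. No setting without a filter was run for the additive fit. Dim probes limit the small levels, such as those of Prim2 and Fancd2.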
